A study of Mus musculus with 10 samples.

Results

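Building the respiratory chain of mitochondria takes a set of proteins that are not part of the finished complexes. They insert haem, copper, iron-sulphur clusters and flavin, hold partly built intermediates, and make coenzyme Q, the lipid that carries electrons between the complexes. The 39 genes described here encode such assembly factors of complex I (11 genes), complex II (2), complex III (5), complex IV (9) and the ATP synthase (3), and the enzymes of coenzyme Q synthesis (9). They were chosen by name from the 25239 gene symbols of the deposited tables, with no threshold on their values. Earlier results of these data were known when the choice was made. Their transcripts were measured by RNA sequencing in 5 libraries of atrial cardiomyocytes and 5 of ventricular cardiomyocytes, the contractile cells of the heart's upper and lower chambers, all from wild-type mice (genotype WT). The labels give no strain, age, sex or treatment for either group, and no account of how the cells were isolated or whether libraries came from separate animals. The p-values below therefore rest on the spread among these libraries alone, part of which may be technical.

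Heart muscle depends on oxidative phosphorylation for most of its ATP, and its mitochondria fill a large share of the cell. Complexes I and II pass electrons to coenzyme Q, complex III takes them on to cytochrome c, complex IV hands them to oxygen, and the ATP synthase uses the proton gradient built on the way. Most of the roles stated below were worked out in human cells or in yeast. Inherited loss of several of these genes in humans, among them COX10, COX15, SCO2, TMEM70 and NDUFAF1, can cause cardiomyopathy as part of a mitochondrial disease.

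Values are read counts that the authors scaled with a size factor for each library, called normalized reads here. Depth was 1790402 to 12842635 recovered reads per library, and replicates 1 and 2 of both chambers stood apart from replicates 3 to 5. Rn45s, the ribosomal RNA precursor, made up 0.215% to 0.480% of each library in the first set and 23.1% to 29.8% in the second. Defining chamber markers followed the labels: Myl7 had 18546 ± 1111 normalized reads in atrial and 237 ± 189 in ventricular libraries (mean ± SD, n = 5 each), and Myl2 averaged 75.2 ± 42.3 in atrial and 104414 ± 21750.2 in ventricular libraries. RNA of other cell types was present as well. Fibroblast markers summed to 21312 to 36361 normalized reads in atrial and 9165 to 63474 in ventricular libraries, over 8 genes including Col1a1 and Pdgfra.

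Across the 39 genes, transcript levels were lower in atrial cardiomyocytes or not distinguishable between the chambers, and none was called higher. Of the 38 genes that passed the filter of a mean of at least 10 normalized reads, 16 were called lower in atrial libraries, 0 were called higher and 22 passed in neither direction (limma, Benjamini-Hochberg adjusted p below 0.05 over 12422 genes). The 16 genes are 42.1% of those tested, while 6.56% of all genes tested were called lower and 8.12% higher. At an unadjusted p under 0.05 in limma 0 were higher in atrial libraries, and edgeR and DESeq2 called 0 higher. Of the 38 genes, 35 had a negative log2 difference (atrial minus ventricular), and the median was -0.41 against -0.01 over all genes tested. The summed level of the 39 genes was 6504 to 7885 normalized reads in atrial and 9881 to 11409 in ventricular libraries, so the ranges did not overlap. In 13 genes every atrial library lay below every ventricular one, which was the case for 6.55% of all genes tested. In bulk RNA, less RNA per cell and fewer cells of a type cannot be told apart, and the libraries measure transcripts, not protein or enzyme activity.

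The plot of log2 differences by role orders the genes within each step of assembly. In the fit with chamber alone, coenzyme Q synthesis had the highest share of calls, with 6 of 9 genes lower and a median of -0.69. Complex III assembly followed with 3 of 5 and a median of -0.64, and complex I assembly had 4 of 11 with a median of -0.38. Complex IV assembly had 2 of 8 tested (median -0.36), the ATP synthase 1 of 3 (median -0.35) and complex II 0 of 2 (median -0.21). For complex II assembly, 0 genes were called by edgeR and 1 by DESeq2, and 1 had an unadjusted p under 0.05. The order changed with the fit. With a replicate term (16% of all genes tested called lower), complex III assembly had 4 of 5 and coenzyme Q synthesis 7 of 9. Replicates 3 to 5 alone (26.6%) gave complex III assembly 5 of 5, ATP synthase 3 of 3 and coenzyme Q synthesis 7 of 9. These shares were not tested against each other.

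**Figure D1:**
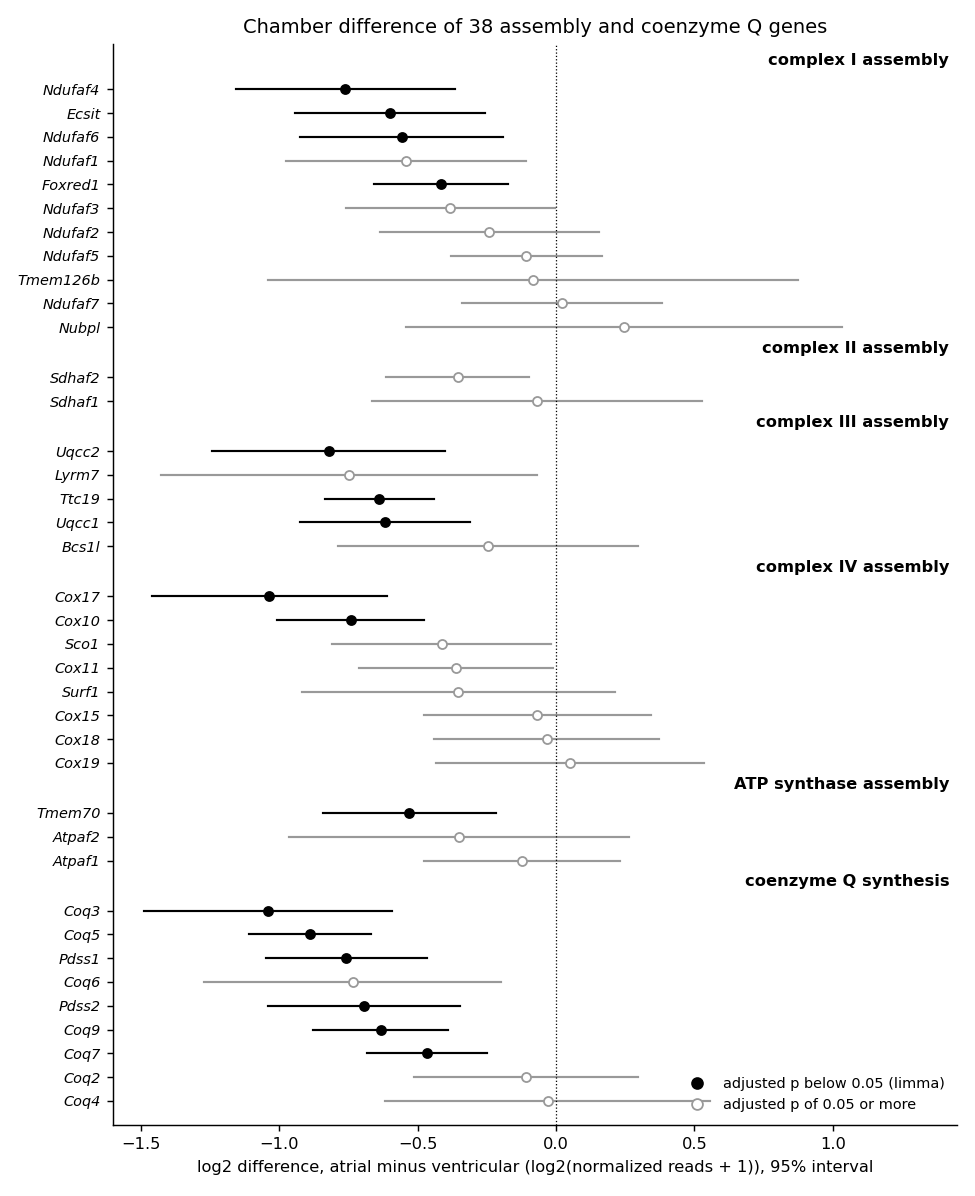
Log2 differences (atrial minus ventricular) of log2(normalized reads + 1) for the 38 tested genes, grouped by role, with 95% intervals from limma over 5 atrial and 5 ventricular libraries. Filled points passed an adjusted p of 0.05. All 16 of them lie left of 0, and the 3 points right of 0, Ndufaf7, Nubpl and Cox19, have intervals that span 0.

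Same-numbered libraries of the chambers deviated together, as did differently numbered ones of replicates 3 to 5, and a replicate block was fitted as well. With the block 23 of the 38 genes were called lower (16% of all genes tested), which added Ndufaf1, Sdhaf2, Lyrm7, Cox11, Sco1, Atpaf2 and Coq6 to the 16 and lost none. The same 23 were called with the library set as a term (15.8% of all genes tested). For all 23 the atrial library was lower than its same-numbered ventricular library in 5 of 5 pairs. The block used the same pairs, so this is not separate support, and the share over all genes tested was not counted. By edgeR the same 16 genes were called (7.37% of all genes tested), and DESeq2 called 19, adding Ndufaf1, Sdhaf2 and Coq6 (9.81% of all genes tested). Scaling every library to an equal total left 8 of the 16 calls (4.34% of all genes tested), and equal totals without Rn45s and Lars2, a symbol that collects ribosomal RNA reads, left 10 (5.06%). The 6 called under both scalings were Ttc19, Cox10, Cox17, Coq5, Coq3 and Coq9. Under equal totals 31 of 38 log2 differences were negative, with a median of -0.35, and all 16 genes kept a negative one under both scalings.

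The promoters of these genes were read from RefSeq (GRCm38.p6), which held 34 of the 39, in windows of 280 bases that run from 250 before the transcription start to 30 after it. For 32 of the 34, bases at or near the start matched a GENCODE transcript of the gene on the stated strand. This checks orientation and does not place the transcript's first base within the window. Each window was searched on both strands for letters bound by factors known to act at nuclear genes of mitochondrial proteins. CCGGAAG, an ETS site of the kind bound by GABPA (also called NRF2), stood in 11 windows (32.4%), against 17.6% of 9855 windows of tested genes. AANATGGC, a YY1 site, stood in 9 windows (26.5%), against 7.11%. Those letters contain ATG, so a match after the start can also be the beginning of the coding sequence. The matches of Atpaf2, Coq9, Cox10, Pdss2, Tmem126b and Uqcc2 lay after the start. The palindromic site of NRF1 stood in 3 windows (8.82%), against 10.3%. AAGGTCA, which oestrogen-related receptors bind, stood in 1 (2.94%, Pdss1), against 2.76%, and the longer TCAAGGTCA stood in 0, against 0.233%. Median GC content of the windows was 61.8%, and 60.7% over tested genes. A match describes letters only, and binding was not measured.

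The 5 promoters below were picked to show these letters, in genes that differed between the chambers and in Cox15, which was not called. Windows of the called genes Coq3, Coq7, Ttc19, Uqcc1 and Foxred1 held none of the searched letters. The called genes Cox17, Coq5, Ndufaf6 and Tmem70 had no window. Uncalled genes such as Ndufaf1, Sdhaf1 and Surf1 also held ETS matches. Whether matches go with the chamber differences was not tested. Each is printed 5′ to 3′ on the strand of its gene in GRCm38.p6, lower case except for matched motifs. Uqcc2 holds an NRF1 and a YY1 match, Ndufaf4 an NRF1 match, Cox10 an ETS and a YY1 match, Cox15 an ETS match and Coq9 a YY1 match.
Uqcc2, chr17:27133862-27134141, minus strand: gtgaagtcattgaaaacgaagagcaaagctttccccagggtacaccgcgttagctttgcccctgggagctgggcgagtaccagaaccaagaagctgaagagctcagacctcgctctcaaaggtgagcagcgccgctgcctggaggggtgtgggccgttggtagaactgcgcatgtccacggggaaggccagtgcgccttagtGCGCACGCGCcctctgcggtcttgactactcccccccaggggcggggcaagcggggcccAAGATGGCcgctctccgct
Ndufaf4, chr4:24897833-24898112, plus strand: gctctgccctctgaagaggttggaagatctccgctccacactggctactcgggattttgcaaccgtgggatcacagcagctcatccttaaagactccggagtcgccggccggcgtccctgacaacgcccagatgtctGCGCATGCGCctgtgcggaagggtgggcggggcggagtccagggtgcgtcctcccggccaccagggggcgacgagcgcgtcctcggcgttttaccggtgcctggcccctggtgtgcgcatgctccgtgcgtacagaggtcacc
Cox10, chr11:64079443-64079722, minus strand: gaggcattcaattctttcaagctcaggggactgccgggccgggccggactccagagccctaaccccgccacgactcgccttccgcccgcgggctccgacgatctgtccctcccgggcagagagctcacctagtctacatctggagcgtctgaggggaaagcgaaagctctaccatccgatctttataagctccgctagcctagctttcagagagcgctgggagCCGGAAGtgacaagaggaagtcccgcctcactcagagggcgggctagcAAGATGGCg
Cox15, chr19:43752971-43753250, minus strand: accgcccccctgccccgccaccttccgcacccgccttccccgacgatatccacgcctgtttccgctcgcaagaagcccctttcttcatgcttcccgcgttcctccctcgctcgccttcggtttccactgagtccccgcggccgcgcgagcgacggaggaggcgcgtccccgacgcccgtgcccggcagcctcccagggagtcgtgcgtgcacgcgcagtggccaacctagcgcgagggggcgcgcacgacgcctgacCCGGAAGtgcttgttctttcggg
Coq9, chr8:94838163-94838442, plus strand: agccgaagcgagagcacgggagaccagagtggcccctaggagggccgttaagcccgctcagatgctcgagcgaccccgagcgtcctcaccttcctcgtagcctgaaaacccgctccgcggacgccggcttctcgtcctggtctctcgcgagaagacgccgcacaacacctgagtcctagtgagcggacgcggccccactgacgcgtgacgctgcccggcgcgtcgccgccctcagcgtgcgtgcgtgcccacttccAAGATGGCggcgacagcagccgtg
In Uqcc2, Cox10 and Coq9 the YY1 letters follow the first 11, 21 and 6 bases after the start. The sequences of Cox10 and Cox15 both carry an ETS match while their chamber differences were -0.74 and -0.07. Of the 39 genes, 8 (20.5%) have the start of another protein-coding gene on the opposite strand within 1000 bases upstream, against 9.87% of 11854 tested protein-coding genes. They are Tmem126b, Ndufaf2, Ndufaf5, Ndufaf7, Bcs1l, Ttc19, Cox11 and Sco1, and of these Ttc19 was called.

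Coenzyme Q is made from a ring and a long isoprenoid tail, and 6 of the 9 genes of its synthesis were lower in atrial cells. Pdss1 and Pdss2 encode the subunits of the enzyme that builds the tail. Pdss1 (chromosome 2, 22895522 to 22940266, plus strand) had 153, 141, 122, 116 and 99.1 normalized reads in atrial replicates 1 to 5, against 211, 227, 210.1, 200.5 and 211 in ventricular replicates 1 to 5. Pdss2 (chromosome 10, 43221486 to 43464882, plus strand) had 71.7, 93.6, 76.7, 67.8 and 75.9 in atrial libraries, against 152, 146, 117, 96.2 and 119.8 in ventricular libraries. For both genes the highest atrial library lay below the lowest ventricular one. The log2 difference was -0.76 ± 0.13 for Pdss1 (SE, adjusted p = 0.00277, limma) and -0.69 ± 0.16 for Pdss2 (adjusted p = 0.0124, limma). Coq2, which joins the tail to the ring, did not pass: it averaged 141 ± 32.7 normalized reads in atrial and 148 ± 8.83 in ventricular libraries (SD, n = 5 each), and the 95% interval of its log2 difference was -0.51 to 0.30. Atrial replicate 1 was low for this gene at 82.8 normalized reads, and without it the difference was 0.072. All positions here are those of whole genes in GENCODE M21 on GRCm38.

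Ring modification then follows. Coq5, the methyltransferase that adds a methyl group to a ring carbon, had the smallest adjusted p of the 39 genes. Coq5 (chromosome 5, 115279666 to 115296972, plus strand) had 560.0, 648, 687, 630.3 and 638 normalized reads in atrial replicates 1 to 5, against 1097, 1079.8, 1327, 1139 and 1218 in ventricular replicates 1 to 5. The groups did not overlap, with a log2 difference of -0.89 ± 0.10 (adjusted p = 0.000195, limma). It was the only one of the 39 genes called with replicates 1 and 2 alone, a share near the 2.04% of all genes tested. Coq3, which methylates the ring's oxygens, had the most negative log2 difference, -1.04 ± 0.20 (adjusted p = 0.00558, limma). Coq3 (chromosome 4, 21879673 to 21912162, plus strand) had 112, 226, 137, 159 and 146 in atrial libraries, against 284, 451, 312, 259 and 292 in ventricular libraries. In both chambers replicate 2 was the highest library, and the highest atrial value stayed below the lowest ventricular one.

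Coq7, a ring hydroxylase, and Coq9, the lipid-binding protein that works with it, were both lower in atrial libraries. Coq7 (chromosome 7, 118509659 to 118533356, minus strand) had 303, 294, 362, 321 and 306 normalized reads in atrial libraries, against 429, 417, 485, 428 and 432 in ventricular libraries, a log2 difference of -0.47 ± 0.10 (adjusted p = 0.00820, limma). Coq9 (chromosome 8, 94838321 to 94854895, plus strand) had 564, 551, 706, 706 and 672 in atrial libraries, against 913, 960.3, 1102, 969 and 996 in ventricular libraries, a log2 difference of -0.63 ± 0.11 (adjusted p = 0.00287, limma). Neither pair of groups overlapped, with coefficients of variation for Coq7 and Coq9 of 8.52% and 11.9% over atrial libraries and 6.08% and 7.13% over ventricular libraries. Coq6, another ring hydroxylase, had 92.4, 115, 67.6, 83.1 and 57.3 in atrial libraries, against 179.9, 188, 130.1, 99.6 and 103 in ventricular libraries. Its groups overlapped, and replicates 1 and 2 were higher than replicates 3 to 5 in both chambers. The difference of -0.73 ± 0.24 gave an adjusted p of 0.0706, and 0.00285 with the replicate block (limma). With 1 library left out, only the fit without atrial replicate 2 passed (0.0406), and the others gave 0.0580 to 0.165 (limma). Coq4, needed for the enzymes to work as a complex, averaged 35.2 ± 12.4 in atrial and 35.6 ± 9.79 in ventricular libraries, with an interval of -0.62 to 0.56. It shares 921 exonic bases with Trub2, which has more reads, so its counts are uncertain.

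**Figure D2:**
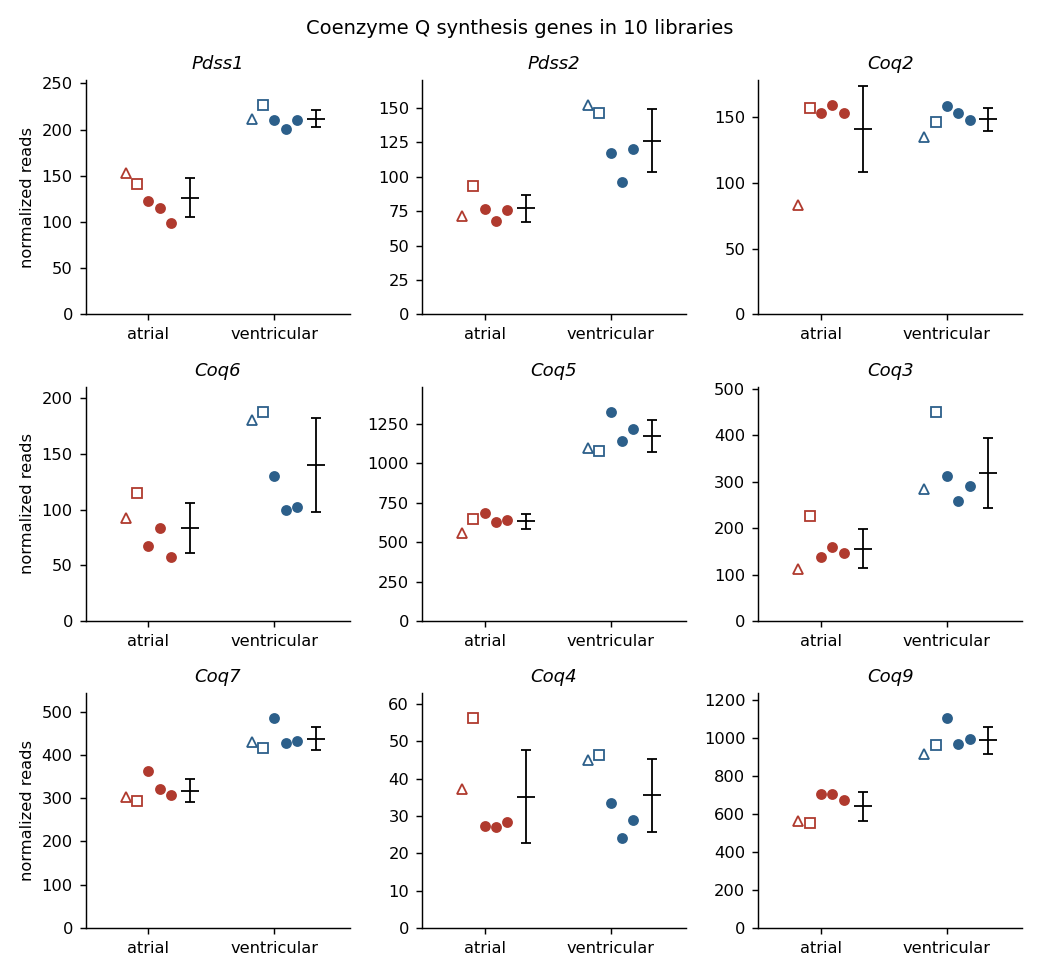
Normalized reads of the 9 coenzyme Q synthesis genes in 5 atrial libraries (red) and 5 ventricular libraries (blue), with the mean and SD beside each group; open triangles are replicate 1, open squares replicate 2 and filled circles replicates 3 to 5. Atrial and ventricular points do not overlap for Pdss1, Pdss2, Coq5, Coq3, Coq7 and Coq9, and overlap for Coq2, Coq6 and Coq4.

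Complex I is built from modules, and 4 of the 11 genes of its assembly were lower in atrial cells. Ndufaf4, which works with Ndufaf3 on an early intermediate, had the most negative difference of the complex I group. Ndufaf4 (chromosome 4, 24898083 to 24905001, plus strand) had 272, 402, 415, 417 and 369 normalized reads in atrial replicates 1 to 5, against 422, 736, 667, 642 and 735 in ventricular replicates 1 to 5. Every atrial library lay below every ventricular one, and replicate 1 was the lowest library of both chambers. The log2 difference was -0.76 ± 0.18 (SE, adjusted p = 0.0155, limma). Ndufaf3 averaged 45.2 ± 5.74 in atrial and 59.5 ± 9.82 in ventricular libraries (SD, n = 5 each), a difference of -0.38 ± 0.17 that did not pass (adjusted p = 0.185, limma). Ndufaf6, another early factor, averaged 60.3 ± 4.44 in atrial and 90.6 ± 17.2 in ventricular libraries. Its ventricular replicate 2, at 60.9 normalized reads, lay within the atrial values of 56.6 to 67.6, and the other 4 ventricular libraries lay above them. Its difference of -0.56 ± 0.17 had an adjusted p of 0.0459 (limma). It passed without atrial replicate 1 (0.0463) or ventricular replicate 2 (0.00477) and did not pass when any other library was left out, with adjusted p-values of 0.0701 to 0.117.

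Ecsit and Ndufaf1 belong to the complex that assembles part of the membrane arm. Ecsit (chromosome 9, 22072246 to 22085438, minus strand) had 149, 193, 118, 116 and 140.3 normalized reads in atrial libraries, against 204, 253, 222, 202 and 193 in ventricular libraries. Atrial replicate 2, its highest atrial library, reached just above the lowest ventricular library, and the other 4 atrial libraries lay below. The log2 difference was -0.60 ± 0.16 (adjusted p = 0.0249, limma). Without atrial replicates 3, 4 or 5 or ventricular replicates 2 or 3, left out singly, the adjusted p was 0.0533 to 0.0690. Ndufaf1 had 60.7, 83.5, 119, 109.7 and 109 in atrial libraries, against 135, 112, 163, 129.6 and 151 in ventricular libraries, and the highest atrial value exceeded the lowest ventricular one. Its difference of -0.54 ± 0.20 had an adjusted p of 0.0993, and 0.0182 with the replicate block (limma). Tmem126b, a further member of that complex, averaged 51.9 ± 22.5 in atrial and 54.2 ± 23.6 in ventricular libraries. Its interval of -1.04 to 0.87 was the widest of the 38, and replicates 1 and 2 were low in both chambers, at 17.9 and 40.3 in atrial and 27.7 and 29.2 in ventricular libraries.

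Foxred1, a flavoprotein of the middle and late steps, had nearly equal atrial values of 317, 305, 301, 298 and 296, against 356, 499.7, 414, 371 and 398 in ventricular libraries. The groups did not overlap, and the difference of -0.42 ± 0.11 had an adjusted p of 0.0268 (limma). Left out singly, atrial replicates 3, 4 or 5 and ventricular replicates 3 or 5 gave adjusted p-values of 0.0581 to 0.0685. The remaining genes of complex I assembly did not pass. Ndufaf2, a late chaperone, averaged 155 ± 33.9 in atrial and 180.4 ± 24.5 in ventricular libraries. Ndufaf5 and Ndufaf7, enzymes that modify an arginine of a core subunit, had intervals of -0.38 to 0.17 and -0.34 to 0.38. Nubpl, which supplies iron-sulphur clusters, was the only one of the 38 with the atrial library higher in 5 of 5 pairs. It averaged 37.2 ± 12.3 normalized reads in atrial and 31.1 ± 11.01 in ventricular libraries, with as few as 6 recovered reads in a library. Its interval of -0.54 to 1.03 spans both directions.

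Complex II needs flavin and iron-sulphur clusters before it is active. Sdhaf2, which helps attach flavin to Sdha, had 249.6, 301, 225, 242 and 224 normalized reads in atrial libraries, against 287, 366, 307, 307 and 319 in ventricular libraries. Only atrial replicate 2 reached into the ventricular values. The difference of -0.36 ± 0.12 had an adjusted p of 0.0677, and 0.00845 with the replicate block (limma). It was 0.0686 by edgeR and 0.0150 by DESeq2. With 1 library left out, only the fit without atrial replicate 2 passed (0.0236), and the others gave 0.0545 to 0.163 (limma). Sdhaf1, which acts on the iron-sulphur clusters of Sdhb, averaged 139.5 ± 26.3 in atrial and 152 ± 51.5 in ventricular libraries. Its replicate 1 was the lowest library of both chambers, at 93.8 in atrial and 72.7 in ventricular cells.

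Complex III assembly starts from cytochrome b, which Uqcc1 and Uqcc2 hold once it is made. Uqcc2 (chromosome 17, 27122663 to 27133916, minus strand) had 222, 358, 220.4, 198 and 189 normalized reads in atrial replicates 1 to 5, against 453, 529, 347, 351 and 392 in ventricular replicates 1 to 5. Atrial replicate 2 lay above the 2 lowest ventricular libraries, and within each pair the atrial library was lower. Uqcc1 (chromosome 2, 155846894 to 155930310, minus strand) had 268, 345, 381, 341 and 358 in atrial libraries, against 405, 489.9, 612, 552 and 549 in ventricular libraries, with no overlap. The log2 differences were -0.82 ± 0.19 (adjusted p = 0.0140) for Uqcc2 and -0.62 ± 0.14 (adjusted p = 0.0121) for Uqcc1 by limma.

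The later steps of complex III concern the Rieske iron-sulphur protein, encoded by Uqcrfs1. Ttc19 clears fragments of that protein from the finished complex, and its transcript varied little within each chamber. Ttc19 (chromosome 11, 62281473 to 62328451, plus strand) had 263, 275, 264, 274 and 257 in atrial libraries, against 457, 392, 400.3, 406 and 424 in ventricular libraries. Coefficients of variation were 2.85% over atrial and 6.16% over ventricular libraries, and the log2 difference was -0.64 ± 0.09 (adjusted p = 0.000726, limma). Lyrm7, the chaperone of the Rieske protein, had low values of 13.8, 13.0, 22.2, 29.5 and 23.2 in atrial libraries, against 27.7, 19.5, 44.0, 37.4 and 45.1 in ventricular libraries. Its difference of -0.75 ± 0.31 had an adjusted p of 0.148, and 0.0185 with the replicate block (limma). Bcs1l, which moves the folded Rieske protein across the inner membrane, averaged 49.7 ± 8.34 in atrial and 61.0 ± 17.1 in ventricular libraries, with an interval of -0.79 to 0.30. Uqcrfs1 itself averaged 1539.5 ± 126 normalized reads in atrial and 2714 ± 266 in ventricular libraries, a log2 difference of -0.82 (adjusted p = 0.000522, limma).

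Complex IV needs haem a and copper. Cox10 and Cox15 encode the successive enzymes that convert haem b to haem o and haem o to haem a, and Cox10 was called lower while Cox15 was not. Cox10 (chromosome 11, 63962627 to 64079468, minus strand) had 234, 203, 177, 219.9 and 216 normalized reads in atrial replicates 1 to 5, against 287, 358, 393, 351 and 372 in ventricular replicates 1 to 5, with no overlap. Its log2 difference was -0.74 ± 0.12 (SE, 95% interval -1.01 to -0.48, adjusted p = 0.00191, limma). Cox15 (chromosome 19, 43733254 to 43753000, minus strand) had 258, 294, 366, 365 and 400.3 in atrial libraries, against 242, 314, 455, 384 and 386 in ventricular libraries. The groups overlapped, and replicates 1 and 2 were below replicates 3 to 5 in both chambers. Its difference was -0.07 ± 0.19 with an interval of -0.48 to 0.34. A test between the genes was not made. Surf1, which acts in haem insertion, averaged 99.0 ± 14.4 in atrial and 134 ± 58.9 in ventricular libraries. Its ventricular replicate 1 was high at 228 normalized reads and the interval was -0.92 to 0.21.

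Copper reaches complex IV through Cox17, which hands it to Sco1, Sco2 and Cox11. Cox17 (chromosome 16, 38346991 to 38352763, plus strand) had 306, 527, 439, 334 and 264 normalized reads in atrial libraries, against 623, 899, 710.1, 827 and 692 in ventricular libraries. The groups did not overlap, and replicate 2 was the highest library of both chambers. The log2 difference was -1.04 ± 0.19 (adjusted p = 0.00404, limma). Sco1 had 172, 226, 148, 158 and 158 in atrial libraries, against 266, 314, 193, 203 and 185 in ventricular libraries. Replicates 1 and 2 were the highest libraries of both chambers and the groups overlapped. The difference of -0.41 ± 0.18 had an adjusted p of 0.168, and 0.00711 with the replicate block (limma). Sco2 was listed at 0 in all 10 libraries. Of its 1253 annotated exonic bases, 829 are shared with Ncaph2 on the other strand and 856 with Tymp on its own strand, and 103 belong to no other gene. Which gene such reads were counted for is not given in the sources used here, so no level is stated for Sco2.

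Cox11, which delivers copper to the haem-copper site, averaged 96.8 ± 16.5 in atrial and 124 ± 15.0 in ventricular libraries. Its difference of -0.36 ± 0.16 had an adjusted p of 0.173, and 0.0442 with the replicate block (limma). It shares 688 exonic bases with Tom1l1 on the opposite strand, which averaged 402 normalized reads and was higher in atrial libraries (log2 difference 1.07, adjusted p = 0.00291, limma). The strand setting of the counting is not given in the sources used here, and the part of those reads in the value of Cox11 was not tested. Cox19, a further protein of copper handling, averaged 128 ± 32.6 in atrial and 124 ± 31.7 in ventricular libraries. Cox18, which inserts part of a mitochondrial-encoded subunit into the membrane, averaged 35.6 ± 3.22 in atrial and 37.0 ± 8.14 in ventricular libraries. Their intervals were -0.43 to 0.53 and -0.44 to 0.37.

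Of the ATP synthase factors, Tmem70, which helps build the ring of c subunits in the membrane, was lower in atrial cells. Tmem70 (chromosome 1, 16665207 to 16678275, plus strand) had 177, 273, 282, 268 and 246 normalized reads in atrial libraries, against 329, 322, 386, 368 and 376 in ventricular libraries, with no overlap. The log2 difference was -0.53 ± 0.14 (adjusted p = 0.0279, limma). Without atrial replicate 5 or ventricular replicates 3, 4 or 5, left out singly, the adjusted p was 0.0641 to 0.0744. Atpaf2, which binds the alpha subunit, averaged 219 ± 71.5 in atrial and 286 ± 119 in ventricular libraries and was high in replicates 1 and 2 of both chambers. Its difference of -0.35 ± 0.28 had an adjusted p of 0.511, and 0.0125 with the replicate block (limma). Atpaf1, which binds the beta subunit, averaged 102 ± 11.3 in atrial and 113 ± 20.9 in ventricular libraries, with an interval of -0.48 to 0.23.

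**Figure D3:**
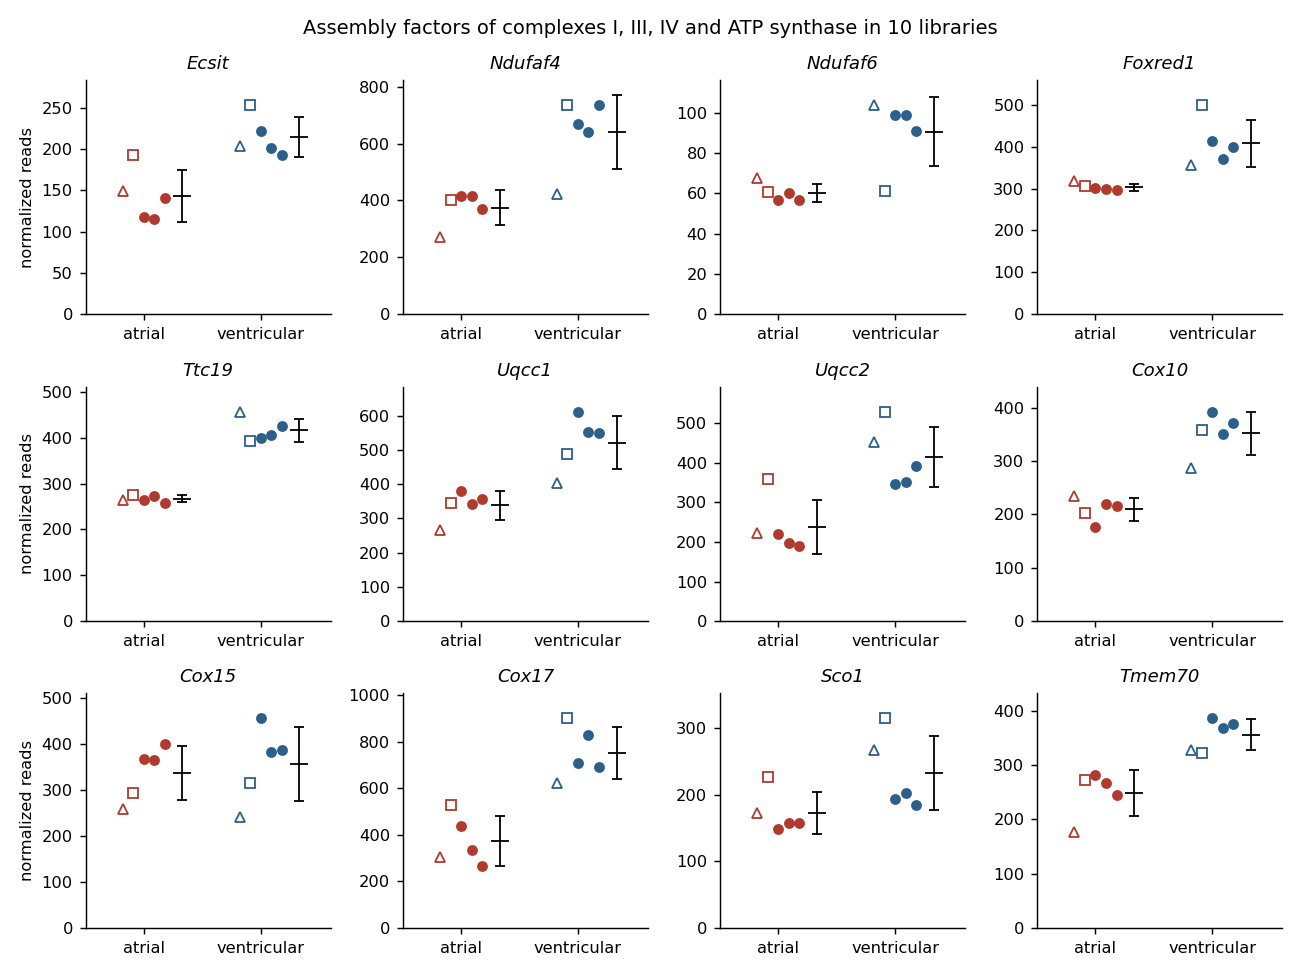
Normalized reads of 12 assembly factors in 5 atrial libraries (red) and 5 ventricular libraries (blue), with the mean and SD beside each group; open triangles are replicate 1, open squares replicate 2 and filled circles replicates 3 to 5. Atrial points lie below all ventricular points for Ndufaf4, Foxred1, Ttc19, Uqcc1, Cox10, Cox17 and Tmem70, while those of Cox15 overlap.

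Levels of different genes were compared per kilobase of the longest principal transcript in GENCODE M21. On that scale Uqcc2 had the highest mean of the 39 genes, 475 ± 138 normalized reads per kilobase in atrial and 829 ± 154 in ventricular libraries (SD, n = 5 each). Coq9 followed with 358 ± 42.6 in atrial and 552 ± 39.4 in ventricular libraries, then Coq5 with 311 ± 22.6 in atrial and 575 ± 49.9 in ventricular libraries. Coq7 had 347 ± 29.6 in atrial and 479 ± 29.1 in ventricular libraries. The libraries' levels of Coq9, Coq5 and Coq7 overlapped within each chamber. Nubpl and Lyrm7 were the lowest genes with reads, with 12.4 ± 4.11 and 5.92 ± 2.02 per kilobase in atrial and 10.4 ± 3.69 and 10.1 ± 3.20 in ventricular libraries. The median over the 38 tested genes was 92.5 per kilobase, against 46.6 over 11855 tested genes with a length. These levels use the length of the longest principal transcript, which for Cox17 is 3690 bases, and other transcripts were not tried.

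The subunits that these factors assemble were lower in atrial cells too. Of 73 tested nuclear-encoded subunits of the 5 complexes, 41 (56.2%) were called lower, against 6.56% of all genes tested. By limma, edgeR or DESeq2 0 were called higher, and the median log2 difference was -0.68. With the replicate block 70 were called lower, and 16% of all genes tested were. Their summed level was 116638 to 153976 normalized reads in atrial and 193461 to 239096 in ventricular libraries. Sdha, the flavoprotein of complex II, averaged 4305 ± 241 in atrial and 9510.1 ± 1074 in ventricular libraries (log2 difference -1.14, adjusted p = 7.05e-05, limma). For complex II the median was -0.21 for assembly factors and -1.004 for subunits, and for complex I it was -0.38 for assembly factors and -0.65 for subunits. For complex III the assembly factors had a median of -0.64 and the subunits -0.82, for complex IV the assembly factors had -0.36 and the subunits -0.71, and for the ATP synthase the assembly factors had -0.35 and the subunits -0.63. In each complex the median of the assembly factors was the less negative, and this was not tested.

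**Figure D4:**
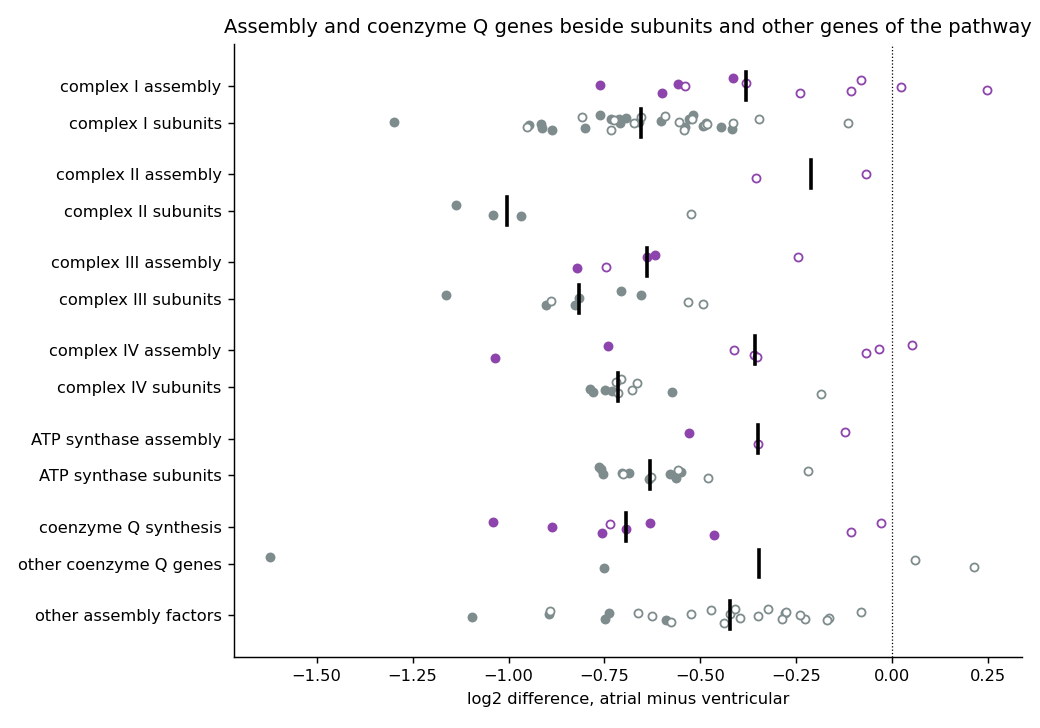
Log2 differences (atrial minus ventricular) of assembly and coenzyme Q genes (purple) beside subunits and other genes of the pathway (grey); filled points passed an adjusted p of 0.05 by limma and vertical bars are medians. All 73 subunit points lie left of 0, and the assembly factors of complexes I and IV reach to both sides of 0.

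Other genes of these pathways mostly had negative differences as well. Of 25 further assembly factors tested, 5 were called lower and 0 higher. Counts were 20 and 0 with the replicate block, and 13 and 0 with the library set as a term. Over all genes tested, 6.56% were called lower, 16% with the block and 15.8% with the set term. All 25 log2 differences were negative, with a median of -0.42. Among them, Higd1a, a partner of complex IV, averaged 233 ± 38.7 in atrial and 494 ± 43.2 in ventricular libraries (log2 difference -1.10, adjusted p = 0.000308, limma). Oxa1l, which inserts proteins into the inner membrane, averaged 423 ± 26.1 in atrial and 716 ± 108 in ventricular libraries (log2 difference -0.75, adjusted p = 0.00162, limma). Coq8a, the kinase-like protein required for coenzyme Q synthesis, averaged 249 ± 63.0 normalized reads in atrial and 756 ± 144 in ventricular libraries (log2 difference -1.62, adjusted p = 0.000391, limma). Coq10a, which binds coenzyme Q, averaged 94.95 ± 15.5 in atrial and 159.6 ± 16.7 in ventricular libraries (log2 difference -0.75, adjusted p = 0.00449, limma), with no overlap. The other 2 tested genes of that group, Coq8b and Coq10b, were called in neither direction and had positive log2 differences (0.059 and 0.21).

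Supply pathways were less uniform. Beside the counts below, 6.56% of all genes tested were called lower, and 16% with the replicate block. The mevalonate pathway, which feeds the tail of coenzyme Q, had 3 of 10 genes called lower (Fdft1, Mvd and Idi1; 5 with the replicate block), and none of the 3 kept its call in all leave-one-out fits. In haem synthesis, Alas1, its first enzyme, averaged 522 ± 145 in atrial and 1172 ± 196 in ventricular libraries (log2 difference -1.19, adjusted p = 0.00142, limma). Cpox, a later enzyme of the same pathway, was higher in atrial libraries, at 345 ± 42.9, against 172 ± 19.4 in ventricular libraries (log2 difference 1.001, adjusted p = 0.000322, limma). The other 7 of 9 haem genes passed in neither direction, and with the block 2 were lower and 2 higher. Of 4 copper delivery genes 0 were called by limma or edgeR (1 at an unadjusted p under 0.05 in limma), 1 was lower by DESeq2 and 2 were lower with the block. Of 14 regulators of mitochondrial genes, 2 were lower (7 with the block): Perm1 averaged 149.6 ± 29.1 in atrial and 819 ± 137 in ventricular libraries (log2 difference -2.45, adjusted p = 4.92e-06, limma), and Ppargc1b averaged 339.7 ± 57.9 in atrial and 712 ± 99.3 in ventricular libraries (log2 difference -1.07, adjusted p = 0.000856, limma). Ppargc1a, the related coactivator, averaged 1153 ± 186 in atrial and 1136 ± 192 in ventricular libraries, with an interval of -0.33 to 0.38.

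Each chamber difference was also compared between the library sets. With replicates 3 to 5 alone 26 of the 38 genes were called lower (26.6% of all genes tested), adding Ndufaf3, Bcs1l and Atpaf1 to the 23 of the block. In the same libraries 7 of 8 fibroblast markers were lower, with a median of -1.24 and sums of 34320 to 36361 normalized reads in atrial and 48548 to 63474 in ventricular libraries. With replicates 1 and 2 alone 1 of the 38 was called, Coq5, a share near the 2.04% of all genes tested. There the median of the fibroblast markers was 0.63, with sums of 21312 and 28679 in atrial and 9165 and 20067 in ventricular libraries. The fibroblast differences were called unequal between the sets for 4 of 8 markers by limma, and their part in the results of the 38 genes was not tested. In replicates 1 and 2 the median of the 38 differences was -0.49, and in replicates 3 to 5 it was -0.42. A test of unequal differences between the sets called 0 of the 38 by limma and by edgeR, against 5.21% of all genes tested by limma. At an unadjusted p under 0.05 in limma there were 2 of the 38, Ndufaf7 and Surf1, against 2509 of 12422 genes tested. Ndufaf7 differed by -0.19 in replicates 1 and 2 and by 0.17 in replicates 3 to 5, and Surf1 by -0.75 in replicates 1 and 2 and by -0.09 in replicates 3 to 5. Without ventricular replicate 2 both were called unequal (adjusted p = 0.0435 and 0.0282, limma), and without atrial replicate 2 Coq2 was (adjusted p = 0.0156, limma). How many of all genes were called unequal in these fits was not counted.

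**Figure D5:**
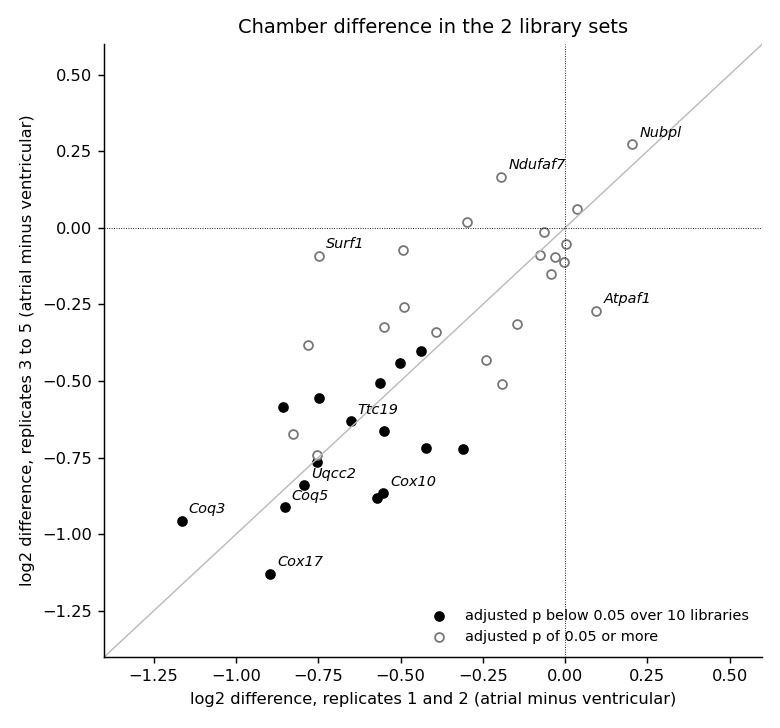
Log2 difference (atrial minus ventricular) of each of the 38 genes in replicates 1 and 2 (x axis) and in replicates 3 to 5 (y axis), with the line of equal values; filled points passed an adjusted p of 0.05 over all 10 libraries (limma). All 16 filled points are negative on both axes, and Surf1 and Ndufaf7 lie above the line.

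The 16 cardiomyocyte markers, which include chamber markers such as Myl2 and Myl7, had sums that differed by library set. In replicates 1 and 2 the sums were 1173430 and 877778 in atrial and 869316 and 751433 in ventricular libraries. In replicates 3 to 5 they were 454420 to 476449 in atrial and 489731 to 561584 in ventricular libraries. Markers of other cells also moved with chamber. All 6 epicardial markers were higher in atrial libraries, summing to 2386 to 5651 normalized reads in atrial and 308 to 1426 in ventricular libraries. Of 7 smooth muscle and pericyte markers 3 were lower and 0 higher by limma, and 1 was higher by edgeR, by DESeq2 and with the replicate block. Log2 differences of these markers ran from -5.33 to 1.76, and their sums were 1715 to 6587 in atrial and 9205 to 15685 in ventricular libraries. Of 8 fibroblast markers 2 were lower over all 10 libraries, and of 8 endothelial markers 2 were higher, with endothelial sums of 749.9 to 3387 in atrial and 234 to 1484 in ventricular libraries. Immune markers had 1 of 3 tested higher, with sums of 76.6 to 182 in atrial and 23.5 to 142 in ventricular libraries. Adipocyte markers had 1 of 2 tested lower, with sums of 90.1 to 259 in atrial and 302 to 439 in ventricular libraries and Adipoq at 0 in 9 of the 10 libraries. Of 2 neuronal and glial markers tested 0 were called by limma, edgeR or DESeq2, and 0 had an unadjusted p under 0.05, with sums of 102 to 174 in atrial and 63.5 to 142 in ventricular libraries. The part of these cells in the chamber differences of the 39 genes was not tested. Of the 39 genes, 16 overlap another gene of the tables. Among the called ones Ecsit shares 598 exonic bases with Gm16845 on the opposite strand, which averaged 2.19 normalized reads. Pdss1 shares 194 exonic bases with Abi1 on the opposite strand, and Abi1 differed by 0.05 (adjusted p = 0.890, limma). Cox10 and Coq9 share 49 and 38 exonic bases with another gene, and Ttc19 shares 1. The uncalled Cox15 shares 444 with Entpd7, which averaged 42.2 normalized reads.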

How the data were processed

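Total RNA was sequenced from 5 atrial and 5 ventricular cardiomyocyte libraries made with the ScriptSeq v2 kit, per the labels' protocols. Trimmomatic, HISAT2 and featureCounts were used on GRCm38 (mm10), per the submitters' processing notes. The sources used here do not give their versions, the annotation or the strand setting. Per the file headers, the authors scaled the read counts of each library by its own size factor, so the deposited values are a signal. Whole reads were recovered for 100% of values within a tolerance of 0.01, and their sums are the depths given. Up to 3 reads are compatible with a value of 0, by counting error alone.

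Genes with a mean of at least 10 were tested, 12422 in number, with limma's two-sided moderated test (3.58.1, R 4.3.3) on log2(normalized reads + 1), with robust variance and a mean-variance trend and Benjamini-Hochberg adjustment at 0.05. This scale understates changes of low genes. The recovered reads were tested with edgeR (4.0.16, quasi-likelihood, same 16 member calls; 915 genes lower, 1097 higher) and DESeq2 (1.42.0) as alternatives. The procedure was tested on simulated data. Same-numbered libraries deviated together from their group means (correlations 0.582, 0.637, 0.623, 0.556 and 0.631, all above 0.1), and the numbers were taken to pair the libraries on that rule. For replicates 1 to 5 the highest correlation with a differently numbered library was 0.345, 0.336, 0.614, 0.633 and 0.636, so within replicates 3 to 5 the number did not stand out from the shared set. For every pair of libraries of a group the mean chi-square per gene lay above 1, the mean under sampling noise alone. Replicates 4 and 5 came closest, with means of 2.24 in atrial and 3.40 in ventricular libraries and medians of 0.679 and 0.777. For atrial replicates 1 and 5 the mean was 247 and the median 8.26. The reference of 1 applies to the means and not to the medians. Each library was counted as 1 sample, but whether replicates 3 to 5 are independent samples is not given by the labels.

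The members and gene lists were chosen with earlier results of these data known. All members are accounted for. Called members, those with separate groups and the highest levels are given in full, and from the other lists at most 4 called genes each are named, or genes that a result turns on; not every called gene is named, and Ppargc1a, Col1a1 and Adipoq were added after their values were seen. Positions and lengths are from GENCODE M21 (GRCm38), promoters from RefSeq (GRCm38.p6).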

Additional observations from a re-analysis of the deposited data

Results flagged for a closer look

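In 7 of 76 groups of 5 libraries, the highest or lowest library lay farther from the others than Dixon's 95% criterion allows, which chance gives in about 1 in 20 groups. In atrial libraries, Nubpl in replicate 2 was low at 15.8 normalized reads (others 38.6 to 46.0), and Sdhaf1 in replicate 1 was low at 93.8 (others 144 to 161). Coq2 in atrial replicate 1 was low at 82.8 (others 153 to 159), and Uqcc2 in atrial replicate 2 was high at 358 (others 189 to 222). In ventricular libraries, Bcs1l in replicate 1 was low at 31.1 (others 64.9 to 75.0). Coq3 in ventricular replicate 2 was high at 451 (others 259 to 312), and Coq7 in ventricular replicate 3 was high at 485 (others 417 to 432). Of the 7 values, 6 belong to replicates 1 and 2, the shallower libraries. Uqcc2, Coq3 and Coq7 were called in every leave-one-out fit.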

How the results depend on the processing

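Of the alternatives run on the tested members one at a time, 752 kept direction and side of the threshold, 29 passed newly, 55 no longer passed and 38 changed sign; among named genes of the other lists 1028 kept both and 99 no longer passed. Lower calls over all genes, 815 with the settings reported, were 1991 with the replicate block, 1966 with the library set as a term, 254 with replicates 1 and 2, 3307 with replicates 3 to 5 and 539 with equal totals. Higher calls, 1009, were 2026, 1989, 384 and 3254 under the first 4 of these. Under equal totals 65.3% of calls were higher, against 55.3%. Member calls, 16, were 1 with replicates 1 and 2, 26 with replicates 3 to 5, 8 with equal totals and 10 with equal totals without Rn45s and Lars2. Lower calls in the other lists, 54, were 108 with the block, 100 with the set term, 23 with replicates 1 and 2, 115 with replicates 3 to 5 and 35 with equal totals. Leaving out 1 library gave 590 to 883 lower and 761 to 1055 higher calls, 12 to 17 members, 42 to 56 genes of the other lists, and 0 to 2 members unequal between library sets.

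Sign changes concerned uncalled members near 0. With replicates 1 and 2, Ndufaf7 was -0.19, Atpaf1 0.095 and Coq4 0.0032; with replicates 3 to 5, Coq2 was 0.019. With equal totals Sdhaf1 was 0.000149, Cox15 0.00111, Cox18 0.034 and Coq4 0.038; without Rn45s and Lars2 Cox18 was 0.024 and Coq4 0.028. Coq4 was 0.020 by edgeR and 0.026 by DESeq2. Leaving out 1 library gave ranges that crossed 0 for Tmem126b (-0.29 to 0.25), Ndufaf7 (-0.040 to 0.14), Sdhaf1 (-0.31 to 0.078), Cox15 (-0.20 to 0.028), Cox19 (-0.050 to 0.17), Cox18 (-0.10 to 0.070), Coq2 (-0.16 to 0.072) and Coq4 (-0.21 to 0.074). The replicate block left directions as they were. The causes were not tested. The lowest count of a tested member in a library was 6 reads, and how depth limits its calls was not tested.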
